A study of Mus musculus with 12 samples.

Results

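Interferon gamma and the pair of T-box transcription factors that drive its gene in lymphocytes were followed through the activation of naive CD8 T cells with and without intact Ikaros. The genes are Ifng, Tbx21 (T-bet) and Eomes (Eomesodermin), chosen by name: all 3 have a row in the table of 12885 gene symbols, and all 3 passed the filter that left 12726 genes for testing. Naive CD8+ T cells, gated as CD62L high and CD44 low or negative, were sorted from spleen. The mice were of the C57Bl/6 strain and 6 weeks old. Wild-type animals (WT) and animals homozygous for the mutation Ikaros-Zn4-/- (Zn4 below) were compared. RNA was taken at rest (0 h) and following 12 h or 24 h of stimulation by plate-bound anti-CD3 and anti-CD28. There were 6 groups of 2 libraries each. The labels do not say that replicates came from separate animals. At 12 h the sex-linked RNA given below differed between replicates, so these were not repeats of the same cell sample. P-values measure the spread between these samples, which may be technical at 0 h and 24 h.

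Ikaros, encoded by Ikzf1, is a zinc-finger transcription factor of lymphocytes that recruits chromatin-remodelling and repressor complexes, and zinc finger 4 is one of the fingers of its DNA-binding domain. Interferon gamma is the main macrophage-activating cytokine of CD8 T cells. T-bet and Eomes bind DNA through a T-box domain and activate Ifng together with STAT4, AP-1, NFAT and Runx3. T-bet is rapidly induced by T cell receptor signals and drives effector differentiation, whereas Eomes is linked to memory and to later effector function. Naive CD8 T cells make little interferon gamma.

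Ifng (ENSMUSG00000055170.4) lies on the plus strand of chr10:118441046-118445892 in GRCm38. Tbx21 (ENSMUSG00000001444.2) lies on the minus strand of chr11:97098071-97115331, and Eomes (ENSMUSG00000032446.14) on the plus strand of chr9:118478212-118486132. All 3 are protein-coding. The 250 bases before each RefSeq transcription start are shown because the mutation alters a DNA-binding protein and because the levels of these genes differed between the genotypes. They come from RefSeq (GRCm38.p6), are written 5′ to 3′ on the strand of the gene, and cover chr10:118440796-118441045 for Ifng, chr11:97115332-97115581 for Tbx21 and chr9:118477939-118478188 for Eomes. Capitals mark matches on either strand to 5 motifs. The Ikaros core was searched as GGGAA. The longer Ikaros motif, which contains that core, was searched as TGGGAA. The T-box core was searched as GGTGTG. The T-box half-site, which contains the T-box core, was searched as AGGTGTGA. The TATA box was searched as TATAAA.
Ifng: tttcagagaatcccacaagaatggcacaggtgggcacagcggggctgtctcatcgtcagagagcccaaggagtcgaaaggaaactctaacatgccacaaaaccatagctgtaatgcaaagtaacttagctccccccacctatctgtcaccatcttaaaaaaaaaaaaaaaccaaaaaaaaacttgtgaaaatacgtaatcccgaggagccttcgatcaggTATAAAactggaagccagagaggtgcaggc
Tbx21: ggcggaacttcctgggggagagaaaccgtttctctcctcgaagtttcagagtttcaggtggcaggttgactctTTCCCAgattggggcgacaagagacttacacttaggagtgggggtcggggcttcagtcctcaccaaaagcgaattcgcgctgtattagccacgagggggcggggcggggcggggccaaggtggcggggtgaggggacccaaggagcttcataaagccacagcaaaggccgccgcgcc
Eomes: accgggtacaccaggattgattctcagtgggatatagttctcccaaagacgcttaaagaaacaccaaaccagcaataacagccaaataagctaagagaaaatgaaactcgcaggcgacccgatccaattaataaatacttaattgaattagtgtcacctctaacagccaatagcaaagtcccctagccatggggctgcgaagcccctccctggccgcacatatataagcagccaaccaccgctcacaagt

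The Ifng window held a TATA box at -30 to -25 from the start and neither Ikaros motif. The Tbx21 window held the longer Ikaros motif on the opposite strand at -177 to -172, with the core inside it. In Eomes none of the 5 motifs occurred. An NFAT-type motif, GGAAA, occurred in the Ifng window and, overlapping the Ikaros match, in the Tbx21 window. An AP-1-type motif, TGANTCA, occurred in none of the 3. Over 32536 RefSeq windows of this length, the Ikaros core was present in 56.3%, the longer Ikaros motif in 21.6% and the TATA box in 12.3%. The T-box core was present in 16.3% and the half-site in 1.12%, the NFAT-type motif in 55.7% and the AP-1-type motif in 6.73%. Matches are a description of letters and not of binding.

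Library totals recovered from the values ran from 24263907 to 33389808 reads, and libraries of a group correlated across tested genes at r = 0.980 to 0.995. The T cell markers Cd3e, Cd3g, Cd3d, Cd8a and Cd8b1 were abundant in all 12 libraries, at 88.0 RPKM or more (reads scaled to gene length and library size). All libraries carry the label female. Yet 4 Y-linked genes summed to 21.0 to 43.4 RPKM in 3 of the 4 libraries of 12 h (WT replicate 1 and both Zn4 replicates). Elsewhere they summed to at most 0.0209 RPKM. Xist, an RNA of female cells, was 0.0023 and 0.0258 RPKM in replicate 1 of WT and of Zn4 at 12 h. Zn4 12 h replicate 2 held both kinds, with 24.3 RPKM of Xist and 21.0 RPKM of Y-linked RNA. Xist was 27.2 to 82.7 RPKM in the libraries with at most 0.0209 RPKM of Y-linked RNA. The genotypes were thus not alike in sex-linked RNA at 12 h. Results at 12 h are therefore also given with the level of the Y-linked genes as a covariate. The altered part of Ikzf1 cannot be seen in a value per gene, so genotype labels were not checked by it. In bulk RNA, a change in the share of expressing cells and a change in RNA per cell cannot be told apart.

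Ifng was close to silent at rest in both genotypes and was far more abundant in Zn4 cells after stimulation. Its level was 0.0971 and 0.102 RPKM in the WT libraries of 0 h, from 3 reads in each, and 0.443 and 0.399 RPKM in the Zn4 libraries, from 14 and 13 reads. At 12 h it was 13.4 and 9.70 RPKM in WT cells against 375 and 570 RPKM in Zn4 cells. At 24 h it was 18.7 and 18.5 RPKM in WT against 224 and 278 RPKM in Zn4. No 2 groups overlapped, and the order from lowest to highest was WT 0 h, Zn4 0 h, WT 12 h, WT 24 h, Zn4 24 h and Zn4 12 h. In the Zn4 libraries of 12 h Ifng ranked 59 and 35 from the top among 12885 symbols, whereas in the WT libraries of that time it ranked 4363 and 5486.

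**Figure D1:**
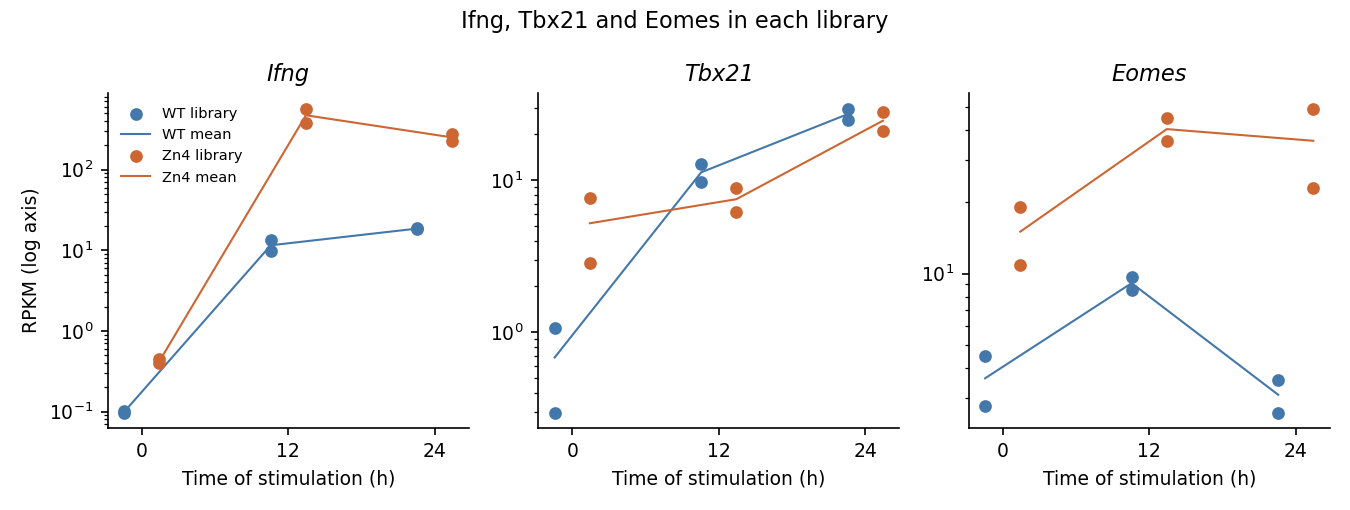
Level of each gene in each library (points, RPKM on a log axis) against the time of stimulation in hours, with lines through the group means of 2 libraries, WT in blue and Zn4 in orange, set slightly apart sideways. Ifng separates by genotype after stimulation (9.70 to 18.7 RPKM in WT, 224 to 570 RPKM in Zn4), Tbx21 lies close in both genotypes at 24 h, and Eomes is higher in Zn4 cells at every time.

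The genotype difference in Ifng was large against the spread of the replicates at both times of stimulation. On the log2(RPKM + 1) scale used for the tests, Zn4 cells exceeded WT cells by 5.22 ± 0.20 at 12 h (SE of the limma model, n = 2 per group, adjusted p = 1.1e-06) and by 3.67 ± 0.20 at 24 h (adjusted p = 1e-05). As a ratio of mean RPKM, the difference was 40.9-fold at 12 h (28.0 to 58.7 between single libraries) and 13.5-fold at 24 h (11.9 to 15.0). The 12 h difference was the third largest rise of all tested genes, and that of 24 h ranked 20. Genes called at an adjusted p under 0.05 made up 13.1% of those tested at 12 h and 19.4% at 24 h (4.85% and 9.40% higher in Zn4, 8.28% and 9.96% lower). Both Ifng calls kept their side of the threshold in all 19 alternatives, including the Y-linked covariate.

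At rest the Ifng levels did not overlap, but so few reads were present that the call depended on the scale. The log2(RPKM + 1) difference was 0.37 ± 0.20 (adjusted p = 0.372), where 5.72% of tested genes were called (3.76% higher, 1.96% lower). With a pseudocount of 0.1 the difference was 1.39 and passed (adjusted p = 0.00452). The ratio of pooled reads, 27 against 6, was 4.24 with an exact 95% counting interval from 1.71 to 12.6, which covers counting error only.

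Stimulation raised Ifng in both genotypes. In WT cells the rise from rest was 3.50 ± 0.20 at 12 h (adjusted p = 3.1e-07) and 4.16 ± 0.20 at 24 h (adjusted p = 1e-07), in comparisons that called 70.2% and 73.9% of tested genes. In Zn4 cells it was 8.35 ± 0.20 (adjusted p = 8.9e-09) and 7.46 ± 0.20 (adjusted p = 1.3e-08), with 73.0% and 74.7% called. The median tested gene itself lay 0.20 higher at 12 h and 0.31 higher at 24 h than at rest in WT cells (0.19 and 0.31 in Zn4), and median-ratio scaling removed nearly all of this shift. Pooled reads gave ratios to rest of 113 (95% counting interval 51.8 to 310) at 12 h and 187 (85.7 to 511) at 24 h in WT cells, and of 1120 (770 to 1700) and 595 (409 to 903) in Zn4 cells.

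The course between 12 h and 24 h went in opposite directions. In WT cells Ifng rose by 0.66 ± 0.20 (adjusted p = 0.0381, where 24.0% of genes were called), and in Zn4 cells it fell by 0.89 on the log2 scale, with an SE of 0.20 (adjusted p = 0.00754, 33.6% called). The difference between these courses was -1.55 ± 0.28 (adjusted p = 0.0460, 0.786% called). Each of these calls depended on single libraries or settings. The WT rise was lost without WT 12 h replicate 2, WT 24 h replicate 1 or WT 24 h replicate 2 (adjusted p = 0.222, 0.147 and 0.151), with median-ratio scaling (0.0623), with the Y-linked covariate (0.0649) and in the fit to recovered reads (0.0813). The Zn4 fall was lost without Zn4 12 h replicate 2 (0.0509) or Zn4 24 h replicate 1 (0.0595), and when the Y-linked covariate was used (0.336). For the difference between courses, leaving out any library other than Zn4 24 h replicate 2 gave adjusted p-values of 0.0587 to 0.2, and without Zn4 24 h replicate 2 it was 0.0266.

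The response of Ifng to stimulation was larger in Zn4 than in WT cells on the scale of the test, by 4.85 ± 0.28 at 12 h (adjusted p = 4.4e-05, 5.12% called) and by 3.30 ± 0.28 at 24 h (adjusted p = 0.000368, 8.24% called). In the limma-voom fit to recovered reads, which compares ratios to the resting level, the differences were 3.45 and 1.83 and neither was called (adjusted p = 0.115 and 0.371). The resting levels behind those ratios rest on 3 to 14 reads a library.

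Eomes was higher in Zn4 cells at all 3 times. WT libraries held 4.48 and 2.76 RPKM at 0 h, 9.70 and 8.52 RPKM at 12 h, and 3.58 and 2.60 RPKM at 24 h. Zn4 libraries held 19.1 and 10.9 RPKM at 0 h, 36.1 and 44.9 RPKM at 12 h, and 49.4 and 23.0 RPKM at 24 h. Every Zn4 library, resting ones included, lay above every WT library of any time. Within the order of groups, WT 24 h and WT 0 h overlapped, as did Zn4 24 h and Zn4 12 h, whereas WT 12 h and Zn4 0 h lay apart from their neighbours.

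Zn4 cells exceeded WT cells in Eomes by 1.77 ± 0.36 at 0 h (SE, n = 2 per group, adjusted p = 0.0189), by 2.03 ± 0.36 at 12 h (adjusted p = 0.00522) and by 3.10 ± 0.36 at 24 h (adjusted p = 0.000433). The ratios of mean RPKM were 4.14, 4.45 and 11.7. The differences at 12 h and 24 h were called in all 19 alternatives. The call at rest ended when WT 0 h replicate 2 (adjusted p = 0.0978) or Zn4 0 h replicate 1 (0.107) was left out.

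**Figure D2:**
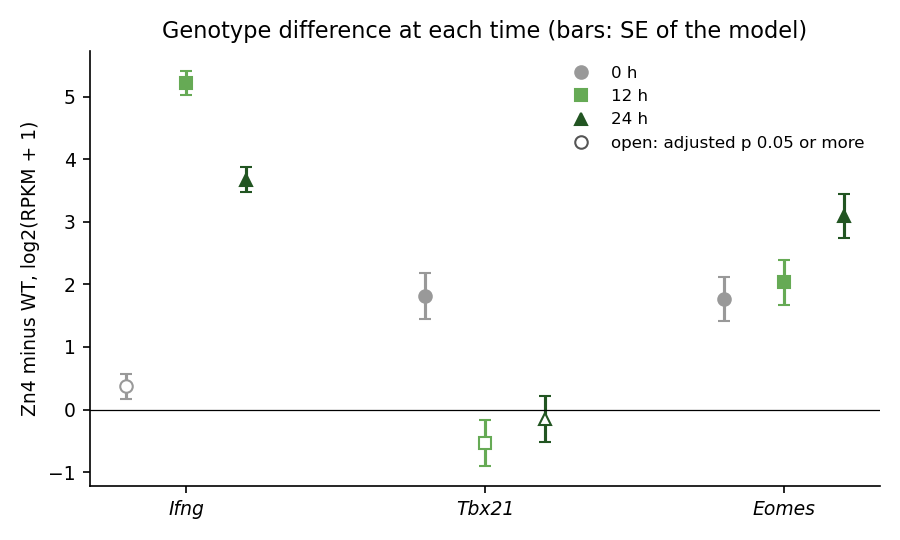
Difference between Zn4 and WT cells on the log2(RPKM + 1) scale for each gene at 0 h, 12 h and 24 h, with bars for the SE of the limma model (2 libraries per group); filled symbols have an adjusted p under 0.05. Ifng differs after stimulation (5.22 and 3.67), Eomes at every time (1.77 to 3.10), and Tbx21 at rest (1.81) but not in the stimulated cells.

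In WT cells Eomes rose and fell again. It rose by 1.15 ± 0.36 from 0 h to 12 h (adjusted p = 0.0157) and fell by 1.31 (SE 0.36) from 12 h to 24 h (adjusted p = 0.0257), so that 24 h and 0 h differed by -0.16 ± 0.36 (adjusted p = 0.696). The rise was not called without WT 0 h replicate 2 (adjusted p = 0.1) or WT 12 h replicate 1 (0.0732), or with the Y-linked covariate (0.0665). Leaving out any 1 of the 4 WT libraries of 12 h and 24 h ended the call of the fall (0.0666 to 0.158), as did the Y-linked covariate (0.126). In Zn4 cells Eomes was 1.42 ± 0.36 above rest at 12 h (adjusted p = 0.00509, and 0.104 with the Y-linked covariate) and 1.17 ± 0.36 above rest at 24 h (adjusted p = 0.0135). The latter was not called with median-ratio scaling (0.79, adjusted p = 0.0692), without Zn4 0 h replicate 2 (0.106) or without Zn4 24 h replicate 1 (0.123). From 12 h to 24 h the change in Zn4 cells was -0.25 ± 0.36 (adjusted p = 0.636).

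The tests of a genotype difference in the Eomes response did not pass. The response to 12 h differed by 0.27 ± 0.50 (adjusted p = 0.852), the response to 24 h by 1.33 ± 0.50 (adjusted p = 0.149) and the step from 12 h to 24 h by 1.07 ± 0.50 (adjusted p = 0.453). The 24 h difference was called without Zn4 24 h replicate 2 (1.87, adjusted p = 0.0296), the lower of the Zn4 libraries of that time.

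Tbx21 was called higher in Zn4 cells at rest and was not called at either time of stimulation. The WT libraries of 0 h held 1.07 and 0.296 RPKM (68 and 18 reads) and the Zn4 libraries 7.58 and 2.83 RPKM (494 and 190 reads). At 12 h the WT libraries stood at 12.9 and 9.65 RPKM and the Zn4 libraries at 6.13 and 8.86 RPKM. At 24 h they stood at 24.9 and 29.5 RPKM in WT and at 21.0 and 28.2 RPKM in Zn4. The genotypes did not overlap at 0 h, where Zn4 was higher, or at 12 h, where WT was higher, and they overlapped at 24 h. In the order of groups, Zn4 0 h overlapped Zn4 12 h, and Zn4 24 h overlapped WT 24 h.

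The resting difference in Tbx21 was 1.81 ± 0.37 (SE, n = 2 per group, adjusted p = 0.0194), or 7.64-fold between mean RPKM values, with single libraries 2.65-fold to 25.6-fold apart. The call ended when WT 0 h replicate 2 (adjusted p = 0.1) or Zn4 0 h replicate 1 (0.080) was left out. The stimulated cells did not pass the test, with -0.54 ± 0.37 at 12 h (adjusted p = 0.423) and -0.15 ± 0.37 at 24 h (adjusted p = 0.824). The mean Tbx21 level of Zn4 cells was 0.666 times that of WT cells at 12 h and 0.905 times at 24 h.

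WT cells raised Tbx21 by 2.89 ± 0.37 at 12 h (adjusted p = 6.8e-05) and by 4.10 ± 0.37 at 24 h (adjusted p = 5.3e-06). Zn4 cells started higher and stood 0.55 ± 0.37 above rest at 12 h (adjusted p = 0.202) and 2.14 ± 0.37 above rest at 24 h (adjusted p = 0.00046). The value at 12 h was 1.13 and called without Zn4 0 h replicate 1 (adjusted p = 0.0122) and was -0.03 without Zn4 0 h replicate 2 (0.933). From 12 h to 24 h Tbx21 rose by 1.21 ± 0.37 in WT cells (adjusted p = 0.0402) and by 1.60 ± 0.37 in Zn4 cells (adjusted p = 0.00884). The WT step was lost in 11 of 19 alternatives, among them each removal of a library of 12 h or 24 h (0.0502 to 0.196). The Zn4 step was lost without Zn4 12 h replicate 1 (0.0740) or Zn4 24 h replicate 2 (0.0581), and when the Y-linked covariate was used (0.132).

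The response of Tbx21 to 12 h of stimulation was smaller in Zn4 cells by 2.34 on the log2(RPKM + 1) scale (difference -2.34 ± 0.52, adjusted p = 0.0338). The corresponding value at 24 h was -1.96 ± 0.52 (adjusted p = 0.0501), which 7 of 19 alternatives brought under the threshold. The call at 12 h was lost without WT 0 h replicate 2 (adjusted p = 0.082), without any 1 of the 4 WT libraries of 12 h and 24 h (0.0614 to 0.107), without Zn4 0 h replicate 1 (0.0594), without either Zn4 library of 12 h (0.140 and 0.0562), and when the Y-linked covariate was used (0.0783). From 12 h to 24 h the genotypes differed by 0.39 ± 0.52 (adjusted p = 0.866).

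The balance of the T-box pair shifted in time and differed between the genotypes after stimulation. Values per length allow the genes to be set side by side within a library. The Eomes level was 4.20 and 9.35 times the Tbx21 level in the WT libraries of 0 h, 0.754 and 0.883 times at 12 h and 0.144 and 0.0880 times at 24 h. In Zn4 libraries the ratio was 2.52 and 3.84 at 0 h, 5.89 and 5.07 at 12 h, and 2.35 and 0.814 at 24 h. Eomes thus stood above Tbx21 in 5 of 6 Zn4 libraries and in 2 of 6 WT libraries, both of these at rest. The genotypes did not overlap in this ratio at any time, with WT higher at 0 h and Zn4 higher at 12 h and 24 h. The ratio was looked at after the values were seen and carries no test. The sum of both T-box levels was 42.2 to 70.3 RPKM in stimulated Zn4 libraries and 18.2 to 32.1 RPKM in stimulated WT libraries.

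**Figure D3:**
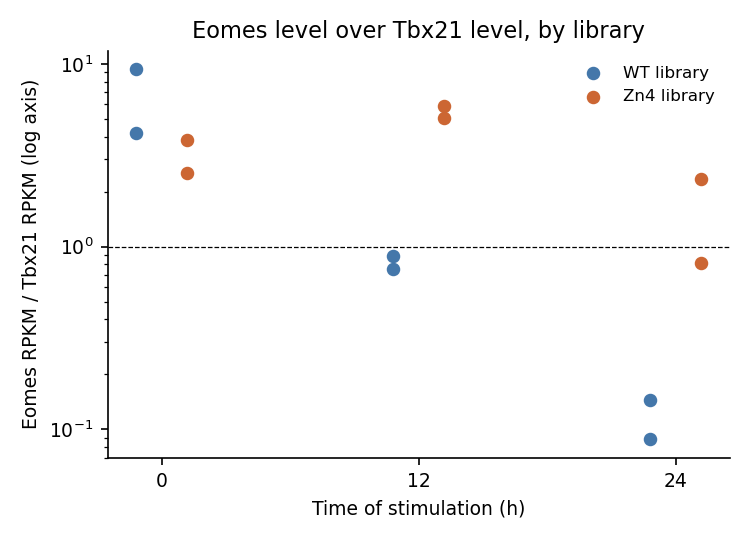
Ratio of the Eomes level to the Tbx21 level (RPKM over RPKM, log axis) in each library against the time of stimulation in hours, WT in blue and Zn4 in orange, set slightly apart sideways; the dashed line marks equal levels. WT libraries pass from 4.20 and 9.35 at rest to 0.144 and 0.0880 at 24 h, and Zn4 libraries stay between 0.814 and 5.89.

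Both T-box genes varied between the resting replicates in the same direction. Replicate 1 held more Eomes and more Tbx21 than replicate 2 in WT cells and in Zn4 cells at 0 h. Ly6c2, a surface antigen gene of memory-phenotype CD8 cells that was picked after its values were seen, did so as well. It stood at 6.83 and 3.97 RPKM in WT and 27.4 and 9.65 RPKM in Zn4. Its genotype difference at rest was 1.48 ± 0.43 and not called (adjusted p = 0.0886). Of the memory markers summed next, Il2rb, Cxcr3, Fasl, Gzmm and Nkg7 also went this way in both genotypes. Cd44 and Itga4 went the other way in both, and Ccl5 in WT only. Over all tested genes, the differences between resting replicates correlated between the genotypes at r = 0.61, so a shared direction is not particular to these genes. The 9 markers of CD44-high memory CD8 cells with a row in the table (of 10 listed, Klrg1 having none) summed to 282 to 338 RPKM in resting WT libraries and to 389 to 487 RPKM in resting Zn4 libraries. They reached 370 to 452 RPKM against 819 to 912 RPKM at 12 h and 382 to 400 RPKM against 677 to 876 RPKM at 24 h. Nkg7 and Il2rb, named after their values were seen, made up most of each sum. In the Zn4 libraries of 12 h Nkg7 stood at 597 and 684 RPKM and Il2rb at 150 and 153 RPKM. Itga4, also named after its values were seen, was lower in resting Zn4 libraries (13.0 and 17.3 RPKM) than in WT (26.2 and 29.7 RPKM) and was not called. Shares over all tested genes were 3.76%, 4.85% and 9.40% higher at 0 h, 12 h and 24 h, and 1.96%, 8.28% and 9.96% lower. Of these 9 markers, 2 were called higher in Zn4 cells at rest, 4 at 12 h and 6 at 24 h, and none lower. The 2 at rest were Gzmm, a granzyme gene, at 0.582 ± 0.0771 RPKM in WT and 27.5 ± 13.1 RPKM in Zn4 (SD, n = 2, difference 4.09 ± 0.26, adjusted p = 3.2e-05), and Cxcr3 (2.93, adjusted p = 0.00012). Cd44 itself, which the sort selected against, was lower in the resting Zn4 libraries (0.535 and 0.990 RPKM) than in the WT libraries (1.23 and 1.39 RPKM), with a difference of -0.40 that was not called (adjusted p = 0.342). The part of memory-phenotype cells in the resting levels of Eomes and Tbx21 was not tested.

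Markers of other lymphocytes that can express these genes have rows in part, and 1 of the 4 innate-like T cell markers with a row was called higher in resting Zn4 cells. Of all tested genes, 3.76% were called higher in that comparison. Of 10 natural killer cell markers, 8 have no row in the table, including Ncr1, Klrb1c and Tyrobp, and Eomes itself is in the list. The remaining marker, Klri2, stood at no more than 0.117 RPKM at rest and at 0.730 to 1.16 RPKM after stimulation. Of 8 markers of gamma-delta and innate-like T cells, 4 are in the table. These summed to 4.36 and 4.98 RPKM in resting WT and 36.8 and 39.5 RPKM in resting Zn4 libraries, and to 0.845 to 4.61 RPKM after stimulation. The scavenger receptor gene Cd163l1 gave 33.6 and 34.6 RPKM of this in resting Zn4 libraries, above Eomes and Tbx21 in the same libraries, against 0.543 and 0.402 RPKM in WT (difference 4.58 ± 0.15, adjusted p = 7.5e-07). The constant-region genes Tcrg-C1, Tcrg-C2 and Tcrg-C4 reached at most 2.74 RPKM in any library and were not called between the genotypes. The part of such cells in the resting levels of Eomes and Tbx21 was not tested. The 2 CD4 cell markers with a row, Cd4 and Cd40lg (Foxp3 and Zbtb7b have none), summed to 0.261 to 2.35 RPKM. Of 6 B cell markers only Cd79b has a row (0.298 to 6.62 RPKM), and 3 of 8 myeloid markers do (14.3 to 34.5 RPKM summed).

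Of the 17 T-box family genes, 5 have a row in the table. Beside the pair above, Mga, Tbx2 and Tbx6, named after their values were seen, were not called between the genotypes at any time. The counts called in Zn4 against WT cells were therefore 2 of 5 higher at rest and 1 of 5 at each time of stimulation, none lower. These counts hold only Tbx21 and Eomes. The shares of all tested genes called higher were 3.76% at 0 h, 4.85% at 12 h and 9.40% at 24 h.

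Genes reported as direct or indirect targets of T-bet or Eomes were called higher more often than lower in stimulated Zn4 cells. Of 20 tested members of this list, 11 were higher and 1 was lower at 12 h, with a median difference of 0.73 against -0.01 over all tested genes, and 13 were higher and 3 lower at 24 h (median 0.94 against -0.02). At rest 2 were higher and 1 lower (median 0.08 against -0.02). Over all tested genes 3.76% were higher and 1.96% lower at rest, 4.85% and 8.28% at 12 h, and 9.40% and 9.96% at 24 h. The list contains Ifng, which is counted among the higher genes at 12 h and 24 h. Cxcr3, a chemokine receptor of effector and memory T cells, was higher at all times, with 0.773 ± 0.0240 RPKM in WT and 12.7 ± 3.20 RPKM in Zn4 at rest (SD, n = 2, log2 difference 2.93), 2.68 at 12 h and 2.19 at 24 h. Il18r1, a chain of the interleukin-18 receptor, was higher by 2.30 at rest, 1.47 at 12 h and 1.17 at 24 h. The granzyme gene Gzmb differed by 1.82 at 12 h and by 3.35 at 24 h, when it reached 1198 ± 513 RPKM in Zn4 and 111 ± 3.14 RPKM in WT cells. The chemokine gene Ccl3 differed by 2.49 and 1.87 at these times. Klrd1 (-1.22), Cxcr6 (-1.30) and Ctsw (-0.90), named after their values were seen, were the 3 lower genes at 24 h. The 12 h count of higher members was 10 with the Y-linked covariate and 8 to 10 without 1 library of that time, and the 24 h count was 9 to 12 without 1 library of that time.

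Receptor and signalling genes upstream of Ifng were called in both directions at each time. Of 21 cytokine receptor, JAK and STAT genes, 2 were higher and 1 lower at rest, 2 higher and 4 lower at 12 h, and 7 higher and 5 lower at 24 h. All tested genes gave shares of 5.72%, 13.1% and 19.4% called at these times. At 24 h the largest rises were those of Il12rb2 (1.72 ± 0.39), the inducible chain of the interleukin-12 receptor, and Stat5a (1.34 ± 0.19). Il12rb2 was uneven there, at 43.6 and 14.3 RPKM in the Zn4 libraries. The transducer Stat4 was higher by 0.97 ± 0.28 at 24 h (adjusted p = 0.0387). Leaving out a WT library of 24 h brought the 7 higher members to 3 in either case, Zn4 24 h replicate 1 brought them to 4 and the 5 lower ones to 1, and either WT library of 24 h brought the lower ones to 1 as well. The 4 lower at 12 h were 1 without WT 12 h replicate 2, none without Zn4 12 h replicate 1 and 1 when the Y-linked covariate was used.

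Among 26 other transcription factors and signalling genes that act on Ifng, 4 were higher and none lower at rest, 4 higher and 3 lower at 12 h, and 12 higher and none lower at 24 h (median 0.53 against -0.02 over all tested genes). The shares of all tested genes called higher were 3.76%, 4.85% and 9.40%. Those called lower were 1.96%, 8.28% and 9.96%, of which the share at 12 h was near that of this list. Gadd45b and Gadd45g encode stress-inducible activators of p38 signalling. Gadd45b was 17.2 ± 3.74 RPKM in WT and 110 ± 7.90 RPKM in Zn4 cells at 12 h (SD, n = 2, log2 difference 2.63) and differed by 3.95 at 24 h. Gadd45g was higher by 2.44 at rest, 1.11 at 12 h and 2.36 at 24 h. Bhlhe40, a factor that supports cytokine production, was higher by 2.63 ± 0.37 and Jun, an AP-1 subunit, by 2.21 ± 0.38 at 24 h. The 24 h count was 8 without WT 24 h replicate 2 and also 8 without Zn4 24 h replicate 1. The 4 higher at rest were 2 without Zn4 0 h replicate 2, and the 4 higher at 12 h were 2 without WT 12 h replicate 2 or with the Y-linked covariate.

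Genes that restrain T-box genes or Ifng, 23 of which were tested, were 2 higher and none lower at rest, 1 higher and 6 lower at 12 h, and 3 higher and 3 lower at 24 h. Over all tested genes, 3.76% were higher and 1.96% lower at rest, and 4.85% were higher and 8.28% lower at 12 h. At 24 h 9.40% were higher and 9.96% lower, near the share of this list at 24 h. Id3, an inhibitor of E proteins kept high in naive and memory cells, was lower by 1.95 at 12 h (difference -1.95 ± 0.41) and by 1.54 at 24 h (-1.54 ± 0.41). Lef1, a naive-state factor, was lower at 12 h (-0.70 ± 0.13), as was Bach2 (-0.49 ± 0.09). The 12 h count of 6 lower genes was not stable: none were called without WT 12 h replicate 2 or without Zn4 12 h replicate 1, 2 without Zn4 12 h replicate 2, 4 without WT 12 h replicate 1 and 2 when the Y-linked covariate was used. At 24 h the 3 higher genes were lost without either WT library and were 1 without Zn4 replicate 1, and the 3 lower ones were 1 without WT replicate 2.

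Genes of the interferon gamma receptor, its signalling and the response to it were mostly lower or not called in stimulated Zn4 cells, where Ifng was higher. Of 28 tested receptor and response genes, 5 were higher and 1 lower in Zn4 cells at rest, none were higher and 17 were lower at 12 h, and 3 were higher and 9 lower at 24 h. The medians were 0.42, -0.67 and -0.20, against -0.02, -0.01 and -0.02 over all tested genes. Of all tested genes, 3.76%, 4.85% and 9.40% were higher at 0 h, 12 h and 24 h, and 1.96%, 8.28% and 9.96% lower. The share of this list that was higher at 24 h was near that of all tested genes. The guanylate-binding protein gene Gbp2 was 116 ± 26.8 RPKM in WT and 29.2 ± 5.95 RPKM in Zn4 cells at 12 h (SD, n = 2, log2 difference -1.95 ± 0.25, adjusted p = 0.00097). Gbp4 (-1.62), the immunity-related GTPase genes Irgm1 (-1.45) and Irgm2 (-1.43) and the transcription factor Irf1 (-1.29) were lower with it. At 24 h Gbp4 (-1.80) and Gbp2 (-1.56) were still lower, while the feedback inhibitors Socs3 (1.74) and Socs1 (1.31) were higher. At rest Iigp1, another GTPase gene, stood at 17.0 ± 3.80 RPKM in Zn4 against 1.36 ± 0.777 RPKM in WT cells (difference 2.95).

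The count of lower response genes at 12 h was 10 when the Y-linked covariate was used, 10 without WT 12 h replicate 2, 9 without Zn4 12 h replicate 1 and 15 without either of the other libraries of 12 h. Without WT 12 h replicate 1, 1 response gene was called higher. The 24 h count of 9 was 4 without WT 24 h replicate 1, WT 24 h replicate 2 or Zn4 24 h replicate 1. The 5 higher at rest were 1 without WT 0 h replicate 1, 2 without either Zn4 library of 0 h, and 3 without either WT library of 24 h.

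**Figure D4:**
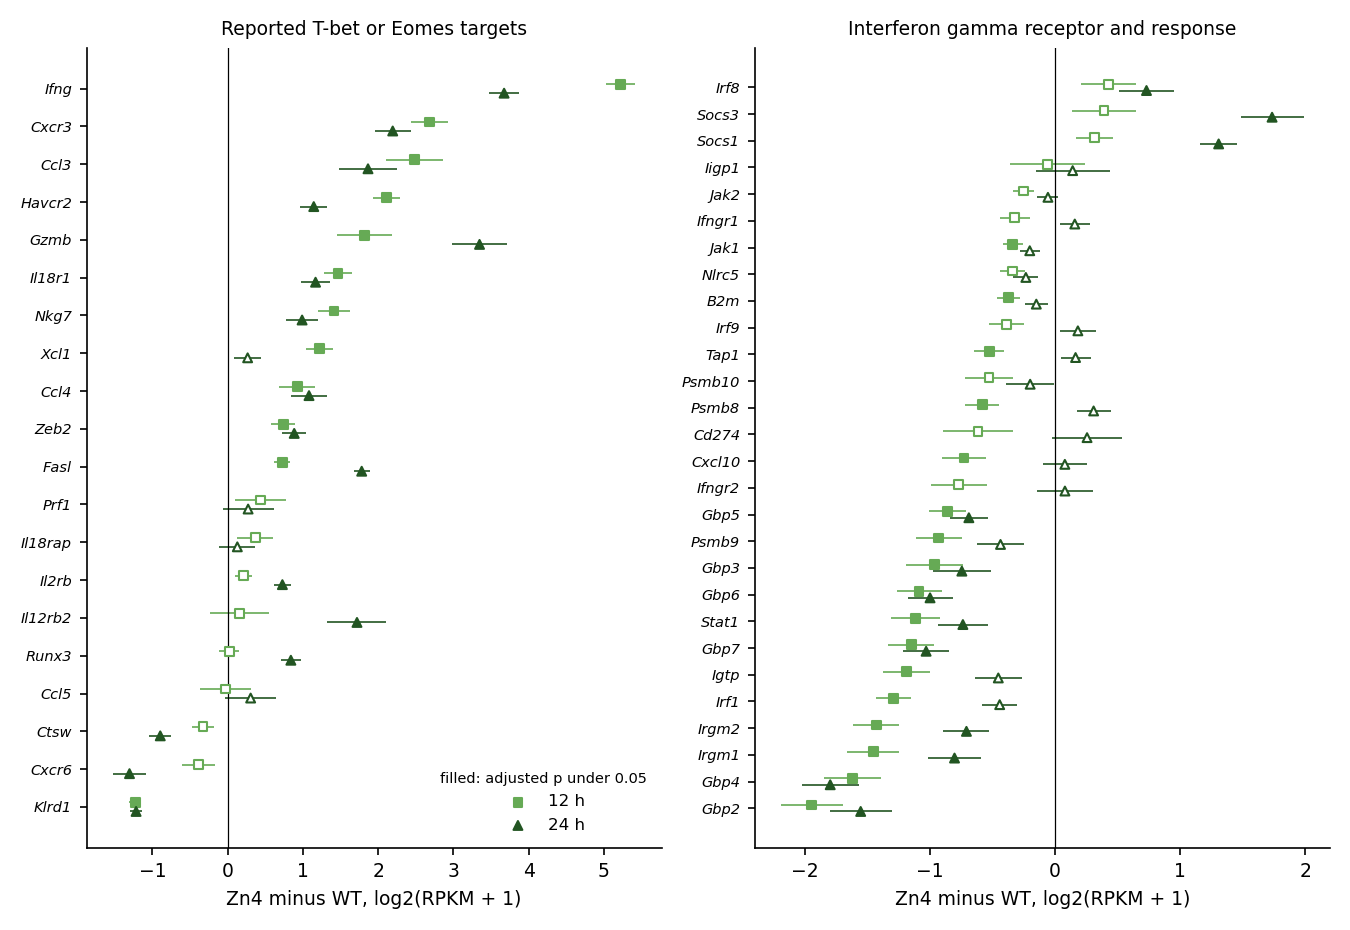
Difference between Zn4 and WT cells on the log2(RPKM + 1) scale at 12 h (squares) and 24 h (triangles) for the tested members of both lists, with bars for the SE of the limma model; filled symbols have an adjusted p under 0.05. Ifng has the largest difference of the reported T-box targets on the left at both times, followed by Cxcr3 at 12 h and Gzmb at 24 h, while on the right 17 of 28 interferon gamma receptor and response genes are called lower in Zn4 cells at 12 h, Gbp2 farthest.

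RNA of both receptor chains fell with stimulation in both genotypes. Ifngr1, the ligand-binding chain, was 241 ± 29.7 RPKM in WT and 127 ± 8.99 RPKM in Zn4 cells at rest (SD, n = 2, difference -0.92 ± 0.12, adjusted p = 0.00175). It fell to 9.62 ± 1.01 and 7.47 ± 0.0589 RPKM at 12 h, with changes from rest of -4.50 in WT and -3.91 in Zn4 cells. Ifngr2, the signalling chain, named after its values were seen, went from 44.4 ± 8.69 to 1.43 ± 0.413 RPKM in WT and from 42.6 ± 11.1 to 0.418 ± 0.106 RPKM in Zn4 cells by 12 h. Neither chain was called between the genotypes at 12 h (adjusted p = 0.115 and 0.0535) or at 24 h (0.405 and 0.850).

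Ifng was not the only cytokine gene that was higher in stimulated Zn4 cells. Of 10 other tested cytokine genes, none was called at rest, 5 were higher at 12 h and 7 higher and 1 lower at 24 h. Among all tested genes 5.72% were called at rest, 4.85% were higher at 12 h, and 9.40% were higher and 9.96% lower at 24 h. The share of this list that was lower at 24 h was near that of all tested genes. Il3 (7.11 at 12 h, 7.05 at 24 h) and Il2 (3.72 and 3.81) differed most at 12 h, and Csf2 differed by 4.96 at 24 h. The lower gene, named after its value was seen, was Ltb, which encodes lymphotoxin beta (-0.86 ± 0.26, adjusted p = 0.0493), a call that leaving out any library other than Zn4 24 h replicate 2 ended.

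Genes with the most similar profiles over the 12 libraries were found by the root-mean-square difference between profiles, each on the log2(RPKM + 1) scale and centred on its own mean. Nearest to Ifng were Zbtb32 (0.64), a zinc-finger repressor of activated lymphocytes, Crabp2 (0.96), Lad1 (1.01), Ccl9 (1.06) and Tubb6 (1.24), where the median tested gene lay 3.24 away. Zbtb32 went from 0.221 to 15.0 and 19.2 RPKM in WT cells and from 0.255 to 169 and 151 RPKM in Zn4 cells (group means at 0, 12 and 24 h). Nearest to Tbx21 were Ly6a (0.43), Chchd6 (0.54), Fignl1 (0.59), Tubg1 (0.59) and Chek1 (0.60), with a median of 1.34. Ly6a, which encodes the activation antigen Sca-1, had a crossing like that of Tbx21, from 1.75 to 20.4 and 29.6 RPKM in WT and from 5.71 to 7.85 and 19.2 RPKM in Zn4. Nearest to Eomes were Chst11 (0.42), Runx2 (0.56), Smim3 (0.56), Cxcr3 (0.59) and Casp4 (0.60), with a median of 1.38. Chst11 went from 0.485 to 2.74 and 1.81 RPKM in WT and from 8.73 to 16.1 and 18.5 RPKM in Zn4. Among the 3 genes, Tbx21 and Eomes lay 1.69 apart, Ifng and Eomes 2.59, and Ifng and Tbx21 2.69. Ranked by nearness to Ifng, Eomes was 684th and Tbx21 1086th among tested genes, both nearer than the median gene, whereas Tbx21 and Eomes lay farther from each other than the median gene did from either.

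Genes next to each of the 3 on the chromosome were compared as well. Over all tested genes, 5.72% were called between the genotypes at 0 h, 13.1% at 12 h and 19.4% at 24 h. The few calls among these neighbours are to be read beside those shares, and they were not checked in the alternatives. Distances here run between gene starts, each taken at the 5′ end on the strand of the gene. The nearest genes with a row in the table on the sides of Ifng were Mdm1 and Dyrk2, at 299 and 429 kb, then Rap1b and Cand1. None was called between the genotypes at 0 h or 12 h, and Rap1b, at 595 kb, was higher in Zn4 cells at 24 h (0.82, adjusted p = 0.00706). Il22, 236 kb from Ifng, and the long noncoding RNA Ifngas1, 115 kb away, have no row. Next to Tbx21, Tbkbp1, whose start lies 36.2 kb away, was higher in Zn4 cells at rest (0.226 RPKM in WT and 1.22 RPKM in Zn4, difference 0.85, adjusted p = 0.012) and not called after stimulation. Osbpl7, 64.7 kb away, was lower in Zn4 cells at 12 h (-0.46, adjusted p = 0.021) and 24 h (-0.41, 0.0264), and Kpnb1 and Mrpl10 were not called. Next to Eomes, Itga9, an integrin gene 128 kb away, was higher in Zn4 cells at 12 h (0.53, adjusted p = 0.046) and 24 h (1.44, 0.00025), at means of 0.451 and 1.86 RPKM against 0.0066 and 0.037 RPKM in WT. Golga4, 28.1 kb away, was higher at 24 h (0.50, 0.0294), and Cmc1 and Azi2 were not called.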

How the data were processed

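The submitters' processing notes name TopHat2 2.0.12, HTSeq 0.6.1 and the builds mm10 and GRCm38 for these stranded single-end mRNA libraries. The deposited values are RPKM per gene for 12 libraries, with 12892 lines. Of the 7 symbols on 2 lines, the earlier line was used. No gene is under 1 RPKM in every group mean, so a gene with no row was not measured here at any level. Values are whole multiples of a step per gene, from which whole reads and library totals were worked out for 12884 of 12885 symbols (tolerance 0.02 reads).

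The 12726 genes that reached 1 RPKM in 2 or more libraries were fitted as log2(RPKM + 1) with limma 3.58.1 in R 4.3.3 (a mean per group over all 12 libraries, 6 residual degrees of freedom, mean-variance trend). The 12 comparisons are each pair of times within a genotype, the genotypes at each time, and the genotype difference in each response. Benjamini-Hochberg adjustment ran over all tested genes of a comparison, with calls under 0.05. The pseudocount damps changes of genes near or below 1 RPKM. The fit was tested on simulated data.

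The members and gene lists were chosen with earlier results of these data known. Named genes are the 3 members, the 5 most similar profiles for each, called list genes among the 6 with the largest genotype difference at a time, and the 2 nearest genes in the table on each side. Exceptions are named as such. Alternatives were a pseudocount of 0.1, no filter, median-ratio scaling, a replicate block, a Y-linked covariate, limma-voom on recovered reads and each library left out; a replicate block at each time point was added after the data were seen.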

Additional observations from a re-analysis of the deposited data

Results flagged for a closer look

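The response to stimulation differed between the genotypes for Ifng at each pair of times and for Tbx21 between 0 h and 12 h, by the test of the difference itself. For Ifng the Zn4 response minus the WT response was 4.85 ± 0.28 from 0 h to 12 h (adjusted p = 4.4e-05), 3.30 ± 0.28 from 0 h to 24 h (adjusted p = 0.000368) and -1.55 ± 0.28 from 12 h to 24 h (adjusted p = 0.0460). For Tbx21 it was -2.34 ± 0.52 from 0 h to 12 h (adjusted p = 0.0338). These are differences on the log2(RPKM + 1) scale with the SE of the limma model, 2 libraries per group. The Ifng difference from 12 h to 24 h was lost in 16 of 19 alternatives and the Tbx21 difference in 9 of 19. The Ifng differences to 12 h and to 24 h were lost in limma-voom on recovered reads (adjusted p = 0.115 and 0.371) and kept in the other alternatives.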

How the results depend on the processing

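Of 36 results for the 3 genes, 14 kept their direction and their side of the threshold in all 19 alternatives. Over all 684 repeats, 598 did so, 67 lost the call, 11 gained it and 8 changed sign. The cause of a change was not tested.

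With median-ratio scaling, Ifng in WT from 12 h to 24 h was 0.56 (adjusted p = 0.0623), Tbx21 in that step 1.11 (0.0589), the Tbx21 response difference to 24 h -2.04 (0.0473) and Eomes in Zn4 at 24 h against 0 h 0.79 (0.0692). With the Y-linked covariate, Ifng from 12 h to 24 h was 0.81 in WT (0.0649), -0.61 in Zn4 (0.336) and -1.42 for their difference (0.153). Tbx21 was 1.35 (0.107) and 1.86 (0.132) in that step and -2.47 (0.0783) for the response difference to 12 h. Eomes was 1.10 (0.0665) in WT and 1.31 (0.104) in Zn4 at 12 h and -1.26 (0.126) in WT from 12 h to 24 h. The count of called genes became 1511 and 847 for WT and Zn4 from 12 h to 24 h, 892 for the genotypes at 12 h, and 318 and 7 for the response differences to 12 h and from 12 h to 24 h. In limma-voom on recovered reads, Ifng was 0.73 (0.0813) in WT from 12 h to 24 h and 3.45 (0.115), 1.83 (0.371) and -1.62 (0.0746) for the response differences to 12 h, to 24 h and from 12 h to 24 h, where 43 genes were called. The Tbx21 response difference to 24 h was -3.16 (0.0403). With a pseudocount of 0.1, Ifng between the resting genotypes was 1.39 (0.00452) and its response difference from 12 h to 24 h -1.59 (0.0784), a comparison that called 0 genes with limma (1407 at an unadjusted p under 0.05). Tbx21 was 1.27 (0.118) in WT from 12 h to 24 h and -2.96 (0.0498) for the response difference to 24 h, the latter -1.96 (0.0498) with no filter.

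The labels number the replicates alike in each group. The differences between replicates 1 and 2 correlated between groups at r = -0.12 to 0.61 and above 0.1 in 3 of 15 pairs of groups. The highest value, 0.61, was that between the genotypes at 0 h. Same-numbered resting samples thus shared variation that the main tests at 0 h do not model. Its source was not tested. The main fit did not pair the samples by number at any time. With a replicate block the Ifng response difference from 12 h to 24 h was -1.55 (adjusted p = 0.0645), among 49 called genes, and the block changed no other call of the 3 genes. With the block fitted separately per time point, Ifng in WT from 12 h to 24 h was 0.63 (0.134), its response difference in that step -1.55 (0.0678), the Tbx21 response difference to 24 h -1.96 (0.0119), that of Eomes 1.33 (0.0234) and Eomes in Zn4 from 12 h to 24 h 0.14 (0.657). This block called 1343, 2644 and 3794 genes between the genotypes at 0 h, 12 h and 24 h, and 1319, 2029 and 216 for the response differences to 12 h, to 24 h and from 12 h to 24 h.

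Leaving out each library in turn gave these ranges where a call or sign changed. For Ifng they were 0.45 to 0.87 in WT and -1.19 to -0.59 in Zn4 from 12 h to 24 h, and -1.85 to -1.25 for their difference. For Tbx21 they were 1.02 to 1.40 in WT and 1.36 to 1.83 in Zn4 from 12 h to 24 h, -0.033 to 1.13 in Zn4 at 12 h against 0 h, 1.23 to 2.39 between resting genotypes, -0.35 to 0.057 between genotypes at 24 h, and -2.93 to -1.76 and -2.54 to -1.37 for the response differences to 12 h and 24 h. For Eomes they were 0.88 to 1.42 (WT, 12 h against 0 h), -0.43 to 0.11 (WT, 24 h against 0 h), -1.49 to -1.14 (WT, 24 h against 12 h), 0.63 to 1.70 (Zn4, 24 h against 0 h), -0.78 to 0.29 (Zn4, 24 h against 12 h), 1.39 to 2.15 (resting genotypes), and -0.12 to 0.65 and 0.80 to 1.87 for the response differences to 12 h and 24 h. Counts of called genes ran from 1347 to 3391 (WT) and 2424 to 4656 (Zn4) from 12 h to 24 h, from 437 to 815, 743 to 1834 and 1061 to 2778 between genotypes at 0 h, 12 h and 24 h, and from 236 to 789, 325 to 1524 and 1 to 450 for the response differences to 12 h, to 24 h and from 12 h to 24 h. Where a group was left with 1 library, that library was assumed to vary like the other groups. Depth limits Ifng at rest, where 1 read is worth 0.0307 to 0.0339 RPKM.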
